A study of Homo sapiens with 54 samples.

Results

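HP1 peaks gained after P3FI-90 were the peaks of the P3FI-90 HP1 list that had a −log10 p of at least 5 and shared no base with any peak of the DMSO HP1 list. The members were thus chosen by their HP1 −log10 p and by the lack of a DMSO peak. The rule kept 8776 of the 41771 peaks of the P3FI-90 list (21.0%). RH4, a cell line grown from fusion-positive rhabdomyosarcoma (FP-RMS) and labelled wild type, was used for every library described here. Chromatin immunoprecipitation with an HP1 antibody was done after 24 h with P3FI-90 at 1 µM and after 24 h with DMSO, with 1 library each (both labelled replicate 2). The study lists this antibody as specific for HP1 alpha (from CBX5), with no cross-reaction to the beta and gamma forms. P3FI-90 and its relative P3FI-63 are small molecules that the study tested against the activity of PAX3-FOXO1, the fusion transcription factor of these tumours. H3K9me2 and H3K4me3 libraries came from 3 P3FI-90 and 3 DMSO samples each at 24 h, total RNA polymerase II (Pol2) and its Ser5 and Ser2 phosphorylated forms and H3K27me3 from 1 each. ATAC-seq, which maps open chromatin, was done with P3FI-63 at 10 µM for 4 h and with DMSO for 4 h, 1 library each, so that it differed from the HP1 libraries in compound and time. RNA-seq came from 3 P3FI-90 and 3 DMSO libraries at 24 h, with 2 P3FI-63 libraries in the same fit. RNA at 6 h (1 P3FI-90 and 1 DMSO library) was used for description only. So was RNA of RH4 tumours at 120 h (2 P3FI-90 and 2 DMSO libraries). By the study's account these tumours grew under the skin of immunodeficient NSG mice, and P3FI-90 was injected daily. The study calls its RNA replicates biological, while the labels do not say whether replicates came from separate cultures, and p-values measure the spread between these libraries. The labels gave 1 µM for the P3FI-90 libraries of replicate 2 and above and 10 µM for P3FI-63, and no dose for the P3FI-90 libraries of replicate 1 (24 h and 6 h RNA, histone marks and Pol2) or for the tumours.

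HP1 proteins, made from CBX5, CBX1 and CBX3, carry a chromodomain that binds methylated lysine 9 of histone H3 and a chromoshadow domain through which they pair and recruit partners. H3K9me2 is written by EHMT1 and EHMT2 and removed by KDM3A and KDM3B, and it covers broad silent domains. HP1 is best known from condensed chromatin at repeats near centromeres, and some HP1 also sits at active genes. In FP-RMS, PAX3-FOXO1 acts together with MYOD1 and MYOG at enhancers, and MYOD1 and MYOG bind the E-box CAGCTG.

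The central 200 bases of 7 gained peaks show what these regions were. They comprise 4 of the 5 strongest gained peaks, and the strongest inside ALK, PIPOX and EYA4 whose window shares no base with an annotated exon. The sequences are the plus strand of GRCh37, the build of the files, and capitals mark CAGCTG, which reads the same on both strands. None of the 7 windows shares a base with an exon of the GENCODE annotation.
BMP7 end, chr20:55743544-55743743: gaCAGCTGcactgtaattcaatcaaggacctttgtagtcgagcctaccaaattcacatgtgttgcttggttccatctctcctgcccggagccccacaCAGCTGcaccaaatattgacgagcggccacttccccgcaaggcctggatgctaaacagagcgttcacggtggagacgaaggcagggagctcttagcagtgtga
UST upstream, chr6:148974392-148974591: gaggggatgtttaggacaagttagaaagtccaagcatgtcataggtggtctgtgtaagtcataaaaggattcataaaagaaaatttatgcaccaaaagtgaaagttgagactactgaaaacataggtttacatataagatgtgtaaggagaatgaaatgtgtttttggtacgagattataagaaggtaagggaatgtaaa
ZNF217 upstream, chr20:52228144-52228343: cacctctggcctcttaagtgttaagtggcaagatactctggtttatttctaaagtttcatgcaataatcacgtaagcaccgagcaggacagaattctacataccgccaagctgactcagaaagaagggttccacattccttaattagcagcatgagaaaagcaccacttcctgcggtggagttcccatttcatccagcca
THBS1 side, chr15:39547893-39548092: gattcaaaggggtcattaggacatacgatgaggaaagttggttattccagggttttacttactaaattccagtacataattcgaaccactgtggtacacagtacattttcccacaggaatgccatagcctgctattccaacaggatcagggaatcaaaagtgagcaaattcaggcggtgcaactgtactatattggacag
ALK intron, chr2:29559924-29560123: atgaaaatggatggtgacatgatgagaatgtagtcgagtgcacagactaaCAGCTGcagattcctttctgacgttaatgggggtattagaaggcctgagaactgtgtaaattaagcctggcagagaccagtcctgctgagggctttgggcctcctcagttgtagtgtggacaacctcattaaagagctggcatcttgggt
PIPOX intron, chr17:27375626-27375825: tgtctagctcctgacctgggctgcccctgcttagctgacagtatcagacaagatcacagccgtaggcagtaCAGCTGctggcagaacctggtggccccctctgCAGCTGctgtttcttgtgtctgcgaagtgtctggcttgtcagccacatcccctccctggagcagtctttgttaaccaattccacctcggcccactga
EYA4 intron, chr6:133666106-133666305: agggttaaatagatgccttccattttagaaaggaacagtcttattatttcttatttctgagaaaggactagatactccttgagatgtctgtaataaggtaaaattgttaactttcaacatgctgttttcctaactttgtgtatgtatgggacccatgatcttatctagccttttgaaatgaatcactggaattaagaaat
CAGCTG stood in the windows at the BMP7 end and in PIPOX (2 matches each) and in ALK (1 match), and in none of the other windows. Their content of G and C ran from 32.5% in the EYA4 window to 57.0% in the PIPOX window.

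The gained peaks were narrow and mostly close to the minimum. Their median width was 412 bases (275 to 4241), against 938 bases for the 6778 kept peaks, which are the peaks of the same list with a −log10 p of at least 5 that overlap a DMSO peak. Their median −log10 p was 5.67 with a highest value of 16.6, and the kept peaks had a median of 6.27 and a highest value of 19.2. The median fold enrichment was 4.01 in the gained and 4.25 in the kept peaks. Only 1145 gained peaks (13.0%) had a −log10 p of 7 or more, against 2189 kept peaks (32.3%). The members just inside the minimum had −log10 p values of 5.00051, 5.00066 and 5.00068, and the peaks just outside it had 4.99984, 4.99975 and 4.99959. These values chose the members and are given as a description. A further 21526 peaks of the P3FI-90 list overlapped no DMSO peak but were below the minimum.

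The P3FI-90 list was the longer of the pair, with 41771 peaks over 26.1 Mb, against 23615 peaks over 13.5 Mb for DMSO. It held 15554 peaks with a −log10 p of at least 5, against 4492 in the DMSO list, and both lists began at a −log10 p of 3.03 and 3.02. In the opposite direction, 1394 DMSO peaks with a −log10 p of at least 5 overlapped no P3FI-90 peak. With 1 library a condition, a gain of HP1 and a difference in enrichment between the libraries cannot be told apart. In the study's own library table the P3FI-90 HP1 library had fewer mapped reads than the DMSO library. The part of read depth or enrichment in the length of the lists was not tested. Of the gained peaks, 15.4% lay within 1 kb of a DMSO HP1 peak, 45.8% within 10 kb and 72.1% within 50 kb. The peaks below the minimum that overlapped no DMSO peak had similar shares at each distance. The share for random positions of the genome was not computed, so whether gained peaks lay closer to DMSO peaks than chance was not tested.

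**Figure D1:**
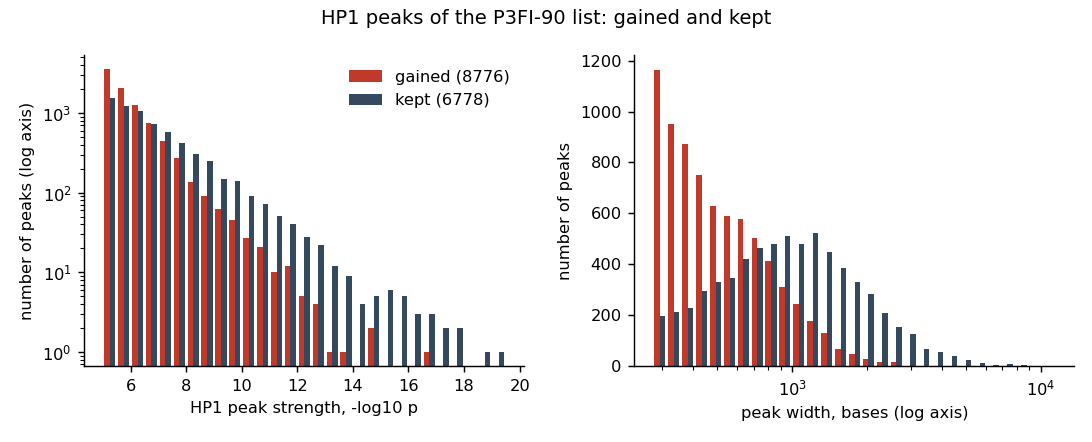
Number of gained (red) and kept (dark) HP1 peaks of the P3FI-90 list by −log10 p (left, log count axis, bins of 0.5) and by width in bases (right, log width axis). The gained peaks crowd at the minimum of 5 and at widths under 1000 bases, with medians of 5.67 and 412 bases.

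The 10 strongest gained peaks had their centres mostly outside genes, and open chromatin was called at 6 of them in the DMSO ATAC list. The strongest (chr20:55743415-55743873, −log10 p 16.6, fold 4.64) had its centre 0.165 kb past the 3′ end of BMP7, a secreted bone morphogenetic protein. This peak was 459 bases wide and reached into the end of the gene. It overlapped an ATAC peak in both lists. The next (chr6:148974233-148974750, −log10 p 14.8, fold 7.14) lay 93.7 kb before UST, a sulfotransferase of chondroitin and dermatan sulfate, with no ATAC or H3K4me3 peak. The third (chr20:52227976-52228511, −log10 p 14.5, fold 3.53) lay 1.80 kb before the start of ZNF217, a zinc finger protein of repressor complexes, and overlapped ATAC in both lists and H3K4me3 in 2 of 3 P3FI-90 and 2 of 3 DMSO lists. Those on chromosomes 15 and 13 lay 325 kb from THBS1 and 34.3 kb from SERTM1. Of the other peaks, 3 were inside genes, TPST1 (−log10 p 13.0), NCKAP5 (12.8) and CEACAM16 (12.8), and 2 were on chromosome 8, nearest to ZHX2 and EYA1, whose sequences are not shown. RNA of ZNF217 was 79.0, 70.5 and 40.4 TPM (transcripts per 1e6 transcripts) in the P3FI-90 libraries (replicates 1, 3 and 4), against 82.8, 87.6 and 54.2 TPM in the DMSO libraries. BMP7 had 3.79, 7.39 and 6.68 TPM with P3FI-90 and 4.95, 9.17 and 8.36 TPM with DMSO. Both genes overlapped between the groups and were lower with P3FI-90 in each of the 3 same-numbered pairs.

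Gained peaks lay inside protein-coding genes about as often as outside them, and more often at start sites than the kept peaks. The midpoint of 4514 of 8776 gained peaks (51.4%, 95% Clopper-Pearson interval 50.4% to 52.5%) lay in a protein-coding gene of GENCODE v44, against 49.3% (48.1% to 50.5%) of the kept peaks, 52.5% (49.9% to 55.2%) of the DMSO-only peaks and 45.7% of the genome. Intervals here and below cover counting error only. Introns held 45.6% of the gained and 44.4% of the kept peaks, and 32.3% of the gained peaks against 36.1% of the kept peaks were more than 50 kb from any protein-coding gene. A gene or the 50 kb around it held 67.7% (66.7% to 68.7%) of the gained peaks, against 63.9% (62.7% to 65.0%) of the kept peaks and 65.8% of the genome. Of the gained peaks 345 (3.93%, interval 3.53% to 4.36%) were within 2 kb of a start site, against 134 kept peaks (1.98%, interval 1.66% to 2.34%) and 2.54% of the genome. The P3FI-90 peaks below the minimum that overlap no DMSO peak had 3.70% at start sites, and all DMSO peaks 2.503%. Of these 345 peaks 253 (73.3%) overlapped H3K4me3 in 2 or 3 DMSO lists and 92 (26.7%) a DMSO ATAC peak, against 10.7% and 18.9% of the gained peaks farther away. The strongest of those at genes with a symbol, picked after their values were seen, were at ZNF217, ZNF75D (−log10 p 10.7), GIN1 (10.4), CDON (8.57), BAZ2A (8.55) and TTN (8.42), and 2 peaks at genes with an Ensembl ID alone (9.18 and 8.76) ranked between GIN1 and CDON. CDON is a cell surface receptor that promotes myogenic differentiation, BAZ2A is a subunit of a nucleolar remodelling complex, and TTN encodes titin, the spring of the sarcomere. The TTN peak, 1.24 kb from the start site, overlapped ATAC in both lists and no H3K4me3 list, and the peak at GIN1 overlapped H3K4me3 in all 6 lists.

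Chromosomes differed in the density of gained peaks, and the gene-rich chromosomes 16, 17, 19 and 22 held few. Density over the genome was 3.07 gained and 2.37 kept peaks per Mb. Chromosome 3 had 4.55 gained per Mb, chromosome 2 had 4.05 and chromosome 20 had 3.83, while chromosome 16 had 1.14, chromosome 19 had 1.18 and X had 1.05. Kept peaks ranged more widely, with 4.51 per Mb on chromosome 3 and 0.330 per Mb on chromosome 16. The ratio of gained to kept was therefore 1.01 on chromosome 3 and 3.46 on chromosome 16, against 1.29 over the genome. The number of copies of each chromosome in RH4 was not measured here, and its part in these densities was not tested.

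**Figure D2:**
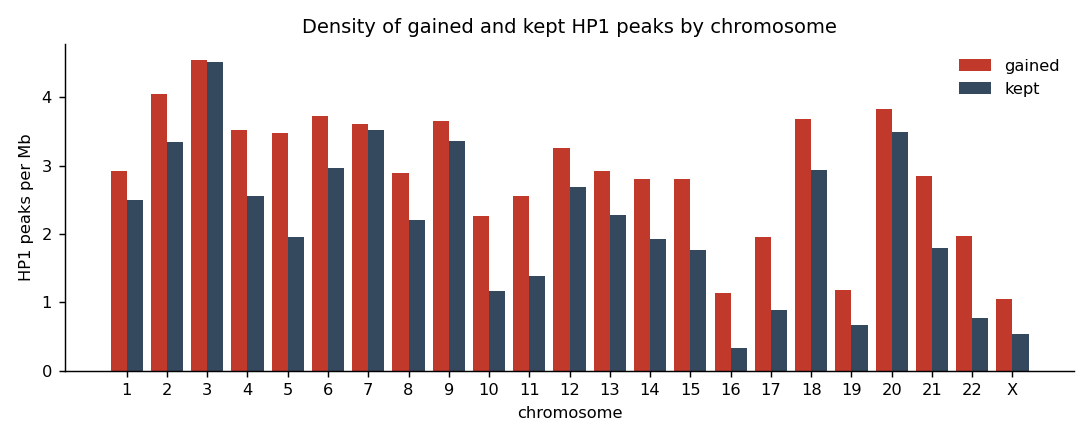
Gained (red) and kept (dark) HP1 peaks per Mb of sequenced bases on each autosome and X. Gained peaks range from 1.05 per Mb on X to 4.55 per Mb on chromosome 3, and the chromosomes with the fewest kept peaks, 16 and X, also have few gained peaks.

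Open chromatin was concentrated at the centres of gained peaks. In the P3FI-63 list 1938 gained peaks (22.1%) overlapped an ATAC peak by 1 base or more, and in the DMSO list 1685 (19.2%). The lists covered 0.258% of the genome with P3FI-63 and 0.130% with DMSO. At the exact centre of gained peaks 7.77% of positions were inside a P3FI-63 ATAC peak and 6.45% inside a DMSO ATAC peak, 30.1 and 49.5 times the share of the genome. The DMSO share was 0.387% at 1 kb before and 0.353% at 1 kb after the centre. ATAC was seen more often at the kept peaks, of which 37.4% overlapped the P3FI-63 list and 37.0% the DMSO list. The kept peaks are wider, but their centres too were more often open, with 8.82% in the DMSO list. Of the gained peaks 528 overlapped only a P3FI-63 ATAC peak, 275 only a DMSO ATAC peak and 1410 both. The overlap increased with the strength of the gained HP1 peak, from 13.9% in DMSO at a −log10 p of 5 to 5.5, through 22.5% at 6 to 7, to 31.4% at 7 to 10 and 39.3% of the 84 peaks at 10 and more. Peak width was also greater in the stronger classes, with a median of 386 bases in the first and 484 bases in the last. The part of open chromatin in the HP1 signal was not tested.

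H3K4me3, the mark of active start sites, was found at a minority of the gained peaks with either treatment. The P3FI-90 lists overlapped 13.9%, 4.68% and 15.2% of the gained peaks (replicates 1, 3 and 4), against 15.4%, 4.65% and 15.6% for the DMSO lists. The replicate 3 lists, the shortest, had the fewest with either treatment. The mean was 11.2% ± 5.72 (SD, n = 3) with P3FI-90 and 11.9% ± 6.25 (SD, n = 3) with DMSO, a difference of −0.62 percentage points (exact two-sided permutation p = 0.60, the smallest possible being 0.10). Leaving out 1 library, which breaks the pairs, turned its sign in some cases: without P3FI-90 replicate 3 it was 2.65, without DMSO replicate 1 it was 1.13 and without DMSO replicate 4 it was 1.23 percentage points. The lists covered 1.01%, 0.494% and 0.925% of the genome with P3FI-90 and 1.04%, 0.495% and 0.946% with DMSO. Kept peaks were overlapped more, with 24.9%, 8.48% and 29.3% in the P3FI-90 lists and 30.1%, 9.49% and 33.2% in the DMSO lists. Divided by both DMSO marks, 568 gained peaks (6.47%) were open and carried H3K4me3 in 2 or 3 lists, 1117 (12.7%) were open without it, 589 (6.71%) carried it without an ATAC peak, and 6502 (74.1%) had neither. Among the kept peaks 53.0% had neither.

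H3K9me2, the mark that HP1 can bind, was called at fewer gained peaks in 2 of the 3 P3FI-90 lists than in the DMSO list of the same number. The 3 pairs of lists were of very different size, since the replicate 1 lists began at a −log10 p of 1.00 and covered 22.5% (P3FI-90) and 21.9% (DMSO) of the genome, whereas the others began at 3.01 to 3.03 and covered 0.165% to 0.434%. The P3FI-90 lists overlapped 69.6%, 7.53% and 3.73% of the gained peaks (replicates 1, 3 and 5), against 71.6%, 11.8% and 2.95% for the DMSO lists. P3FI-90 was thus lower in replicates 1 and 3 and higher in replicate 5. In replicate 3 the P3FI-90 list was itself the shorter, with 14924 peaks (0.240% of the genome), against 26073 peaks (0.434%) for DMSO. The mean was 26.9% ± 37.0 (SD, n = 3) with P3FI-90 and 28.8% ± 37.4 (SD, n = 3) with DMSO, a difference of −1.86 percentage points (exact two-sided permutation p = 0.80, the smallest possible being 0.10). Without both replicate 1 libraries, a setting chosen after seeing the data, it was −1.75 percentage points. Leaving out 1 library sets lists of unequal size against each other and gave −23.2 (without P3FI-90 replicate 1) to 19.6 (without DMSO replicate 1), with 7.84 and 9.74 without P3FI-90 replicate 3 and 5. With every list begun at a −log10 p of 3, a setting chosen after seeing the data, the difference was −1.08 percentage points (exact p = 1.0). At that setting, 387 gained peaks (4.41%) had H3K9me2 in 2 or 3 P3FI-90 lists and 470 (5.36%) in 2 or 3 DMSO lists, and 306 had it with P3FI-90 and not with DMSO by this count, against 389 the other way. The gained peaks were still richer in H3K9me2 than the genome. Their centres were in the P3FI-90 lists 1.98, 13.8 and 11.4 times as often as the genome (replicates 1, 3 and 5), and in the DMSO lists 2.24, 13.7 and 9.45 times. Kept peaks held more, with 1529 (22.6%) in 2 or 3 P3FI-90 lists and 1545 (22.8%) in 2 or 3 DMSO lists. H3K9me2 and open chromatin met at 67 gained peaks. Of the open gained peaks 3.98% (interval 3.09% to 5.02%) had H3K9me2 in 2 or 3 P3FI-90 lists, and of the gained peaks that were not open 4.51% (4.04% to 5.02%).

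**Figure D3:**
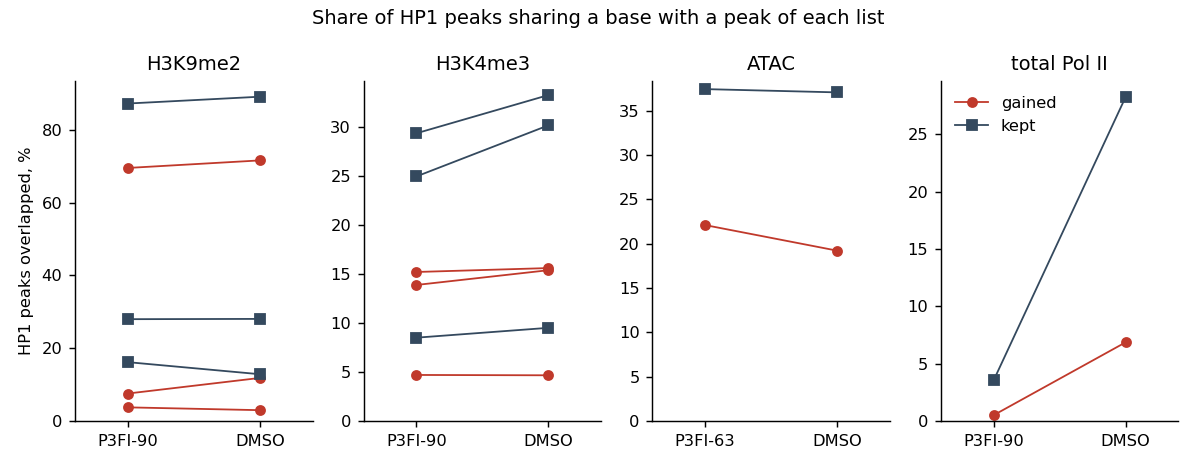
Share of gained (red circles) and kept (dark squares) HP1 peaks that share at least 1 base with a peak of each H3K9me2, H3K4me3, ATAC and total Pol2 list, with lines joining libraries of 1 replicate number. The treated library (P3FI-63 for ATAC) is on the left of DMSO; kept peaks lie above gained peaks within each pair of libraries, and the H3K9me2 values run from 2.95% to 89.1%.

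**Figure D4:**
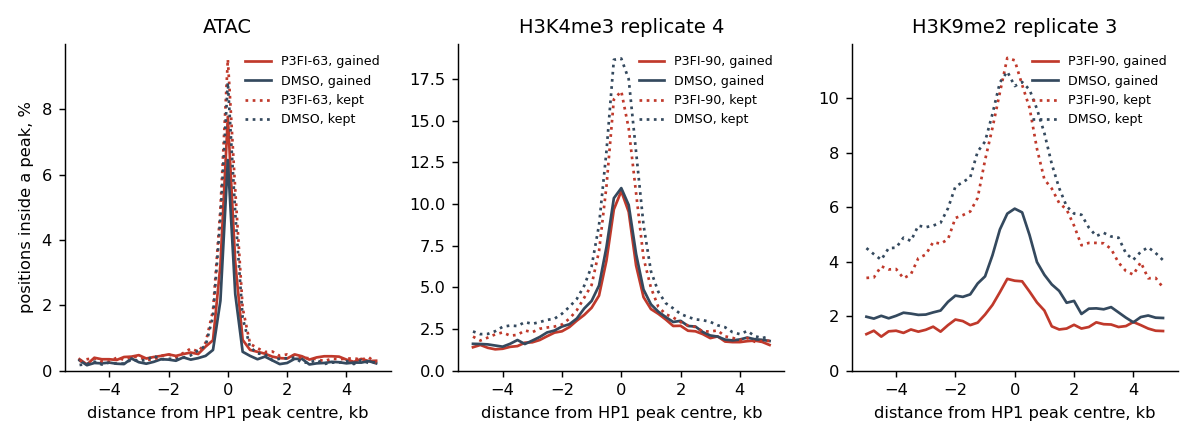
Share of positions inside an ATAC, H3K4me3 (replicate 4) or H3K9me2 (replicate 3) peak at each distance in kb from the centres of gained (solid) and kept (dotted) HP1 peaks, for the treated (red) and DMSO (dark) lists. ATAC rises only at the centre, to 7.77% with P3FI-63 and 6.45% with DMSO at gained peaks, and H3K9me2 is highest at the centre, at 3.30% with P3FI-90 and 5.95% with DMSO, and at 2.21% and 3.52% at 1 kb after it.

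The polymerase lists were shorter after P3FI-90, both at the gained peaks and elsewhere. Total Pol2 overlapped 44 gained peaks (0.501%) with P3FI-90, against 602 (6.86%) with DMSO, and 3.54% of the kept peaks with P3FI-90 against 28.3% with DMSO. The whole lists held 521 peaks with P3FI-90 and 6031 with DMSO, so that the smaller overlap went with a smaller list everywhere. Ser5-phosphorylated Pol2 overlapped 3.61% of the gained peaks with P3FI-90 and 5.48% with DMSO, and the Ser2 form 0.889% with P3FI-90 and 2.02% with DMSO. These lists too were shorter, with 7484 against 13691 peaks for Ser5 and 2268 against 10086 for Ser2. Centres of gained peaks were in the Ser5 lists 20.6 (P3FI-90) and 14.6 (DMSO) times as often as the genome. For Ser2 the values were 15.2 (P3FI-90) and 5.69 (DMSO) times. H3K27me3, the Polycomb mark, covered 16.2% of the centres of gained peaks with P3FI-90 and 16.7% with DMSO, 1.03 and 1.07 times the share of the genome, in lists that began at a −log10 p of 1.00. Its stronger peaks were at fewer of the centres than in the genome. With a minimum of 3 the values were 0.638 (P3FI-90) and 0.634 (DMSO) times the share of the genome, and with a minimum of 5 they were 0.293 (P3FI-90) and 0.232 (DMSO) times, settings chosen after seeing the data. These libraries had no replicates.

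Of 3 E-boxes searched, CAGCTG was more frequent at gained peaks than in the genome, and the other two were not. Each motif was searched on both strands in the central 300 bases of each peak and in all 300-base windows of the genome, and the motifs were chosen after a peak sequence had been read. CAGCTG, the MYOD1 and MYOG class of E-box, stood in 2211 of 8776 gained windows (25.2%, interval 24.3% to 26.1%), in 28.0% of the kept windows and in 10.1% of genome windows. Its share was 48.7% in the gained peaks that overlapped a DMSO ATAC peak and 19.6% in the others, against 46.6% at all DMSO ATAC peaks. It also increased with HP1 strength, from 21.1% at a −log10 p of 5 to 5.5 to 35.7% at 10 and more. The AP-1 site TGANTCA was in 14.4% of gained, 14.2% of kept and 9.31% of genome windows, and the TEAD site CATTCC (reverse complement GGAATG) in 20.6%, 22.1% and 15.5%. The MYC-class E-box CACGTG was in 2.45% of gained, 2.24% of kept and 2.73% of genome windows. CACCTG (reverse complement CAGGTG), an E-box bound by ZEB and SNAI repressors, was in 13.3% of gained and 13.1% of kept windows. It was thus less frequent in both than in the genome (20.9%). Its share was 19.8% in the gained peaks that overlapped a DMSO ATAC peak and 11.8% in the others, against 19.2% at all DMSO ATAC peaks. The homeodomain core TAATTA was in 14.6% of gained, 15.0% of kept and 12.5% of genome windows. Matches of different motifs could overlap in part, and none of the motifs contains another. The gained windows had a median of 38.7% G and C, as had the kept windows, against a mean of 40.9% over the genome, and those at a DMSO ATAC peak had 46.0%. A match is a description of the letters and not of binding.

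Long genes held most of the gained peaks inside genes. The 4514 peaks lay in 2329 of 20163 protein-coding genes (11.6%), of which 1378 held 1 peak, 758 held 2 to 4 and 193 held 5 or more. The genes with a gained peak had a median length of 136 kb, against 27.2 kb for all. Of the genes under 20 kb 1.65% held a gained peak and of those over 500 kb 63.3%. Density per Mb of gene went from 2.02 in the shortest class to 4.45 at 200 to 500 kb and was 3.49 over 500 kb. CADM2, a synaptic cell adhesion molecule (chr3:85008140-86123579), held the most, with 34 gained peaks beside 74 kept peaks and 277 DMSO peaks. ROBO1, the receptor of the SLIT guidance cues, held 32, and RAD51B, of the homologous recombination machinery, held 23. RUNX1 (17), FGGY, MACROD2 and NAALADL2 (15 each) and ARHGAP15, EYA4 and PCDH7 (14 each) followed. Per Mb, EYA4 (48.0), PCDH7 (32.8) and CADM2 (30.5) were densest of these, against 3.43 over all protein-coding genes. Kept peaks were denser still in EYA4 (78.9 per Mb) and CADM2 (66.3), though not in PCDH7 (9.38), against 2.54 over all protein-coding genes. EYA4 held 81 DMSO peaks and PCDH7 held 48. EYA4 is a protein phosphatase and transcriptional coactivator, and none of its 14 peaks overlapped ATAC while 9 carried H3K9me2 in 2 or 3 P3FI-90 lists and 8 in 2 or 3 DMSO lists. In CADM2 16 of 34 carried H3K9me2 in 2 or 3 P3FI-90 lists and 14 in 2 or 3 DMSO lists. These H3K9me2 counts by gene, here and for ALK, use the lists as deposited, with the large replicate 1 lists in full. Among genes with 5 or more peaks, picked after their values were seen, CHSY1 (65.5 per Mb), the RNA-binding protein QKI (54.7), ZNF608 (53.6) and SGCE (52.9), which encodes epsilon-sarcoglycan, had the highest density. Beside 5, 9, 6 and 7 gained peaks, in this order, they held 0, 16, 3 and 1 kept peaks and 5, 55, 11 and 13 DMSO peaks.

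Listed PAX3-FOXO1 target genes held gained peaks in 9 of 27 cases, with 21 gained and 20 kept peaks (6.26 and 5.96 per Mb, against 3.43 and 2.54 over all protein-coding genes). Of all protein-coding genes 11.6% held a gained peak. The list comes from literature on the fusion and was chosen with earlier results of these data known, and its genes differ from all genes in length. ALK, a receptor tyrosine kinase whose enhancer the fusion uses, held 8 gained peaks with −log10 p of 5.09 to 9.30. Of these 3 overlapped ATAC in both lists, none overlapped H3K4me3 in 2 or more DMSO lists, and 5 had H3K9me2 in 2 DMSO lists while none had it in more than 1 P3FI-90 list. Over all gained peaks 740 (8.43%) had it in 2 or 3 P3FI-90 lists as deposited and 1095 (12.5%) in 2 or 3 DMSO lists, and the DMSO list of replicate 3 was the longer. The annotated interval of PIPOX, an oxidase of pipecolic acid, held 3 gained peaks and no kept peak, and all 3 overlapped H3K4me3 in 2 or 3 DMSO lists. None of them had the PIPOX start as its nearest start site. The peak at chr17:27279342-27279748 lay 0.756 kb from the start of PHF12. The others were nearest to the start of SEZ6, at 42.3 and 32.5 kb. The receptors MET and IGF1R and the secreted protein NELL1 held 2 each, and TFAP2B, JARID2, KCNN3 and DCX held 1 each. Of the 24 listed targets tested for RNA, with or without a gained peak, 7 had all P3FI-90 libraries below all DMSO libraries and 0 had them above, where the background over all genes was 7.73% and 4.21%, and none passed the limma test. Their median log2 fold change was −0.33, against −0.08 over all genes tested. ALK RNA was 3.17, 4.46 and 5.39 TPM with P3FI-90, against 3.87, 6.98 and 5.90 TPM with DMSO, which overlap but were lower in each of the 3 same-numbered pairs. PIPOX had 20.03, 13.0 and 11.3 TPM with P3FI-90, against 21.8, 21.9 and 18.0 TPM with DMSO, likewise lower in each pair. TFAP2B, a transcription factor, had 3.93, 5.64 and 3.6 TPM with P3FI-90, against 6.66, 10.9 and 6.53 TPM with DMSO. Its libraries did not overlap, but it missed the test (log2 fold change −0.73 ± 0.33 SE, limma adjusted p = 1.00).

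Of the HP1 and H3K9 methylation machinery, 3 of 22 genes held gained peaks: ATF7IP, the partner of SETDB1, with 3, and ADNP, a zinc finger partner of HP1, and the H3K9 demethylase KDM3A with 1 each. CBX5, CBX1 and CBX3 held none. The density in these 22 genes was 2.79 gained peaks per Mb, against 3.43 over all protein-coding genes. Of all protein-coding genes 11.6% held a gained peak, the share to set beside the counts of genes given here. Contractile genes held 6 in 5 of 22 (TTN 2, and TNNT1, MYL4, NEB and MYH8 1 each), a density of 1.79 per Mb. Of the integrated stress response only ATF3 held any (2 peaks in 1 of 16 genes, 4.21 per Mb). Of large gene clusters where HP1 is known from other work, gained peaks lay in 18 of 263 zinc finger genes of chromosome 19 (2.60 per Mb, against 1.18 over the chromosome and 3.43 over all protein-coding genes), 3 of 415 olfactory receptor genes (1.10 per Mb), and 9 of 51 clustered protocadherin genes, of which the 8 PCDHA genes share 1 sequence stretch and thus the same peak. ZNF536 and ZIM2, with 3 each, led the zinc finger genes, and PCDHB16, at 16.9, 10.6 and 12.4 TPM with P3FI-90 and 15.9, 12.3 and 14.1 TPM with DMSO (which overlap), held 1 peak of its own.

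Genes that held gained peaks were mostly expressed, and none passed the test for a change of RNA after P3FI-90. Of 2178 host genes with a match in the RNA data, 1705 (78.3%) averaged at least 1 TPM over the 24 h libraries, against 59.8% of all matched protein-coding genes, and 169 of 188 (89.9%) with 5 or more peaks did. The muscle genes MYOD1, MYOG, MYF5 and DES held no gained, kept or DMSO HP1 peak and were not host genes. Of the other lineage markers, FGFR4 and CDH15 held none either, and FOXO1 held 1 kept and 1 DMSO peak but no gained peak. PAX3, like TFAP2B, was a host gene, with 1 gained, 2 kept and 9 DMSO peaks. PAX3 had 12.23, 14.35 and 12.32 TPM with P3FI-90 and 23.47, 20.29 and 17.37 TPM with DMSO, without overlap but short of the test. MYOD1 had 111, 279.6 and 268 TPM with P3FI-90 and 192, 290.4 and 289 TPM with DMSO, which overlap but were lower in each pair. DES had 396, 441 and 531 TPM with P3FI-90 and 360, 332 and 398 TPM with DMSO, which overlap but were higher in each pair. MYOG had 239, 199 and 247 TPM with P3FI-90 and 296, 353 and 389.6 TPM with DMSO, without overlap but short of the test (limma adjusted p = 1.00), and MYF5 was at 0 TPM in all 6 libraries. The median log2 fold change (on log2 of TPM + 1) of the host genes was −0.050, with −0.061, −0.051 and −0.041 in the library pairs of replicate 1, 3 and 4 (SD 0.010 over the 3 pairs), against −0.080 over all 12332 genes tested. The medians were −0.071 with 1 peak, −0.033 with 2 to 4, −0.012 with 5 or more, and −0.069 where the gained peak was at the start site. Leaving out 1 library breaks a pair and moved the median over all genes too: the host median was 0.088 without P3FI-90 replicate 4 (0.014 over all genes tested), 0.048 without DMSO replicate 3 (0.0046 over all) and −0.188 without DMSO replicate 4 (−0.164 over all). With median-ratio scaling of the libraries it was 0.021 (−0.010 over all). None of the 1705 passed an adjusted p under 0.05 in limma, where the background was 0.00811% (TRIB3 alone, with no gained peak, or 3 genes with the replicate number as a block, none of them a host), and 21 had an unadjusted p under 0.05, or 1.23% against a background of 1.98%. All P3FI-90 libraries were above all DMSO libraries for 76 host genes (4.46%, background 4.21%) and below them for 77 (4.52%, background 7.73%). At 6 h (1 library each) the median was 0.15 for host and 0.15 for all genes tested, and in tumours grown in mice (120 h, 2 P3FI-90 and 2 DMSO) it was −0.35 for host and −0.29 for all genes tested.

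The host genes of highest log2 fold change, chosen for it, were ARRDC3, NCOA7, DDR2, ATF3 and HDAC9. ATF3, a stress-induced transcription factor, held 2 gained peaks (−log10 p 8.86 and 5.48) and no DMSO HP1 peak. Its RNA was 98.7, 119.7 and 95.3 TPM with P3FI-90, against 55.0, 53.5 and 42.6 TPM with DMSO. All P3FI-90 libraries were above all DMSO libraries (log2 fold change 1.04 ± 0.26 SE, limma adjusted p = 1.00). Of the 16 listed integrated stress response genes, 11 were separated upward in this way and 0 downward (background 4.21% and 7.73%). Their median log2 fold change was 1.28, and only ATF3 among them held a gained peak. ARRDC3, an arrestin-like adaptor, had 42.2, 63.02 and 48.5 TPM with P3FI-90 and 26.7, 22.5 and 16.5 TPM with DMSO. NCOA7 had 8.11, 12.03 and 6.43 TPM with P3FI-90 and 3.74, 4.36 and 2.14 TPM with DMSO. DDR2, a collagen receptor, had 36.7, 33.8 and 42.9 TPM with P3FI-90 and 17.6, 20.2 and 15.2 TPM with DMSO. These 3 did not overlap between the groups, and HDAC9, a histone deacetylase with 7 gained peaks, did overlap. Its values were 9.89, 11.4 and 4.69 TPM with P3FI-90 and 4.73, 4.99 and 1.67 TPM with DMSO, higher in each of the 3 pairs.

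At the other end stood IL1RAPL2, CASS4, P2RY1, DICER1 and DBX1. IL1RAPL2, an interleukin receptor family member with 3 gained peaks, had 6.25, 4.58 and 7.27 TPM with P3FI-90, against 14.1, 18.3 and 20.1 TPM with DMSO (log2 fold change −1.40 ± 0.35 SE, limma adjusted p = 1.00). DICER1, the nuclease that matures microRNAs, held 3 gained peaks and had 36.8, 36.5 and 23.7 TPM with P3FI-90, against 57.9, 80.7 and 44.6 TPM with DMSO. P2RY1, a purine receptor, had 9.49, 10.6 and 5.24 TPM with P3FI-90 and 16.2, 21.8 and 13.7 TPM with DMSO. Those 3 did not overlap between the groups, whereas CASS4 and DBX1 did, being lower in each pair. PCDH7, with 14 gained peaks, also stood apart, with 63.3, 70.4 and 47.5 TPM with P3FI-90 and 91.1, 103.7 and 71.7 TPM with DMSO. CADM2 had 34.0, 29.2 and 22.6 TPM with P3FI-90 and 54.0, 42.2 and 25.2 TPM with DMSO, which overlap but were lower in each pair, and EYA4 had 36.7, 56.7 and 35.7 TPM with P3FI-90 and 33.8, 44.3 and 31.8 TPM with DMSO, which overlap but were higher in each pair.

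**Figure D5:**
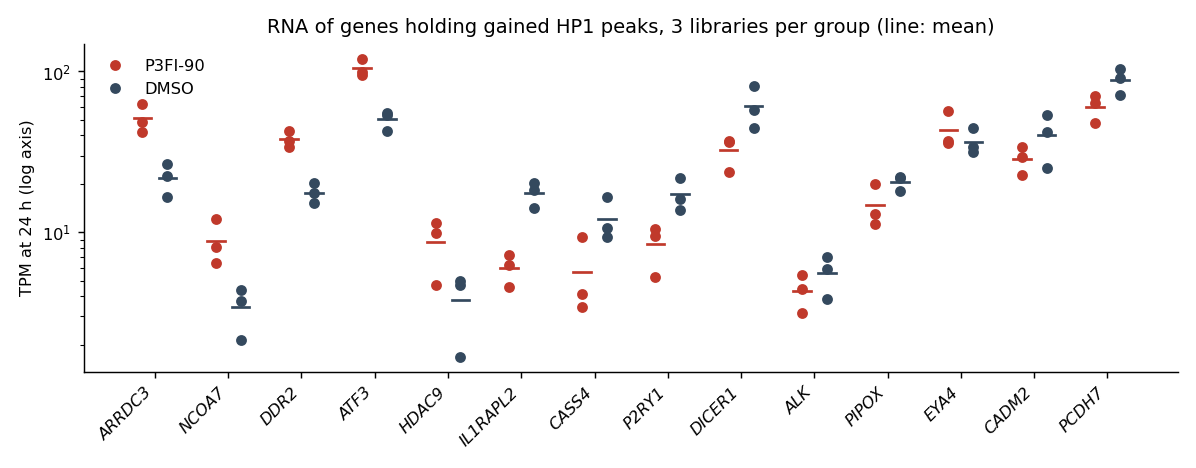
TPM at 24 h (log axis) of genes that hold gained HP1 peaks in the 3 P3FI-90 (red, left) and 3 DMSO (dark, right) libraries, with a line at each mean. ARRDC3, NCOA7, DDR2 and ATF3 are separated upward and IL1RAPL2, P2RY1, DICER1 and PCDH7 downward; the first 9 genes were chosen for their fold change, and none passed the limma test.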

How the data were processed

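The members, gene lists and tests were chosen with earlier results of these data known. Reads were mapped to hg19 (GRCh37) with BWA and peaks called with MACS2 per library. The deposited broad HP1 lists give a fold enrichment (ratio) and −log10 p and −log10 q values; for the other marks the deposited −log10 p was used. Peaks in blacklisted regions had been removed, as the list names show. Drosophila chromatin was added as a spike-in and samples were scaled by it, but whether this touched the peak lists, or an input library was used, is not given in the sources used here. Read depth is not in the lists. TPM values were made by the authors with STAR and RSEM; total depth cannot be recovered from TPM.

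From there, overlaps of at least 1 base were counted in Python 3.11.15 (pandas 2.3.3, numpy 2.4.6) on chromosomes 1 to 22, X and Y, genome shares being over 2859 Mb of known bases. Places came from GENCODE v44 lifted to GRCh37, and sequences from the GRCh37 genome. Shares carry exact Clopper-Pearson intervals (scipy 1.17.1). Library shares were compared by an exact two-sided permutation test. RNA was tested with limma 3.58.1 (R 4.3.3, trend) on log2(TPM + 1) on 8 libraries of 3 groups, keeping genes that averaged 1 TPM or more, with Benjamini-Hochberg adjustment. In simulated data of 12332 genes for this comparison, 61.0% of 200 genes changed by 2 on the log2 scale and 1.50% of those changed by 1 were recovered. The simulated libraries were drawn independently, unlike the real same-numbered libraries. Changes were placed only in genes with a DMSO mean of log2(TPM + 1) over 2, so the shares do not cover genes of lower expression. Symbols matched 2178 of 2329 host genes, older symbols included. Named were the 10 strongest gained peaks with their gene, the 10 genes with most gained peaks, the 5 host genes of highest and the 5 of lowest log2 fold change above the TPM minimum, host genes past the test, and up to 5 list members with a gained peak by number and then TPM; others are marked as chosen afterwards. Same-numbered RNA libraries deviated together (correlations of deviations 0.571, 0.575 and 0.643 over genes), as did those of H3K4me3 (0.375, 0.811 and 0.493 over members). Values are therefore also described by same-numbered pair. The main limma fit, with its SE and adjusted p values, and the permutation tests did not use the pairs. Pairs entered a test only in the replicate block setting. With that block 998 genes had an unadjusted limma p under 0.05, against 244 in the main fit. Drug screening, knockdown, Hi-C and single-cell libraries were not used here.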

Additional observations from a re-analysis of the deposited data

How the results depend on the processing

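The number of gained peaks followed the minimum, with 1145 at a −log10 p of 7 and 30302 at 3, and was within 1.5 times of the value given for both other overlap rules (7425 with no DMSO peak within 1000 bases, 11343 with less than 50% of the peak covered). The share inside genes was 47.1% at a minimum of 7, 67.9% for all annotated genes and 71.1% for the gene intervals of the RNA tables, the last chosen after seeing the data. ATAC overlap was 34.8% (P3FI-63) and 32.0% (DMSO) at a minimum of 7, and 29.1% (P3FI-63) and 24.4% (DMSO) within 1000 bases. Leaving out 1 library at a time, the difference ran from −23.2 to 19.6 percentage points for H3K9me2 and from −4.23 to 2.65 for H3K4me3, which breaks the pairs and, for H3K9me2, sets lists of unequal size against each other. The sign turned on leaving out P3FI-90 replicate 3 or 5 or DMSO replicate 1, and P3FI-90 replicate 3 or DMSO replicate 1 or 4. No other alternative turned either sign, and the H3K9me2 difference was −1.75 without both replicate 1 libraries. The pairing of libraries by number (replicate block) left both differences at −1.86 and −0.62 percentage points (exact sign-flip p = 0.50 for each); H3K9me2 numbers did not pair in every case, with correlations of 0.281, 0.0860 and 0.342. Genes changed at 24 h numbered 1, and 0 with no filter, 0 with median-ratio scaling, 2 with P3FI-90 and DMSO alone, 3 with the replicate block (TRIB3, DDIT3 and CXCL8) and 0 to 1 on leaving out a library; counts at an unadjusted p under 0.05 were 466 and 480 for the first pair of zeros. Leaving out P3FI-90 replicate 3 or 4 or DMSO replicate 3 or 4 gave 0 (145, 146, 141 and 175 unadjusted), and no setting called a gene with a gained peak. The median log2 fold change of host genes was −0.035 with no filter, 0.021 with median-ratio scaling (−0.010 over all genes tested), −0.012 for 5 or more peaks, and −0.188 to 0.088 on leaving out a library (−0.168 to 0.014 over all genes tested). The 10 host genes chosen by fold change kept their sign in 90 of 90 alternatives, with adjusted p values (limma) of 0.358 or more. HP1 itself has no replicate, and the peak lists hold no read counts.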
